A study of Rattus norvegicus with 12 samples.

Results

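A set of 282 array probes gave a higher signal in every sample of rat brain taken after embolization of the middle cerebral artery than in any sample of normal brain. They were chosen from the values themselves. Of 60148 distinct probes on the array, 57102 carry a name that begins with rclstr, a prefix that the sources used here do not explain, and 38523 of those were well above background on all 12 arrays. A probe joined the set if its lowest deposited log2 value on the 8 arrays of embolized rats exceeded its highest value on the 4 control arrays, and if the mean of the 8 exceeded the mean of the 4 by at least 1.5-fold. This left 282 of 38523, or 0.732%. The difference from control is therefore what the set was picked for, and every value against control below is a description with no test behind it. The choice did not compare treated with untreated embolized rats, although it required both to lie above control.

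The 12 samples form 3 groups of 4, each sample on its own one-colour array of 60-base probes. Control samples are labelled normal brain, with no embolization and no decoction. Model samples come from rats 7 days after middle cerebral artery embolization. BHD samples come from rats with the same embolization that received Buyang Huanwu Decoction (BHD), also at day 7, with no dose given in the labels. All rats are marked male, no strain or age is given, and the one note on their keeping is free access to food and water. Some labels disagree. The tissue is entered as brain but most descriptions name the hippocampus, and the series text applies embolization to all groups although control samples are called normal. All 4 BHD descriptions carry the number 4, so replicate numbers were read from the titles. Replicates are described as biological with no animal named for any, so a p-value covers only the spread seen between the samples. No sham-operated group was analysed here, so surgery and embolization cannot be told apart. Control arrays lay in row 1 and model arrays in row 2 of one slide, and BHD arrays lay in row 1 of a second slide scanned separately. Model against control thus stays within a slide and BHD against control within a row, while BHD against model crosses both slide and row.

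The middle cerebral artery feeds much of one cerebral hemisphere, and its blockage kills neurons in the core of that territory within hours. Over the following days microglia divide and turn phagocytic, blood-derived macrophages enter, astrocytes swell and express glial filament proteins, and a scar of matrix forms around the lesion. Tissue taken a week later commonly carries RNAs of these cells at levels far above those of intact brain. BHD is a multi-herb preparation of Chinese medicine used after stroke. Circular RNAs, which the series addresses, are closed loops joined by back-splicing. The labelling used a primer that starts from runs of A and a dye built into first-strand DNA, so a probe printed below reads as the RNA strand it detects, and that RNA need not be circular. No source used here pairs these probes with genes, so the probes are given by name and sequence. Which cells the RNAs come from was not tested, and in whole tissue, more RNA per cell and more cells of a type cannot be told apart.

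Of the 282 sequences, those shown here are the ones the results turn on. The 6 probes with the largest differences from control come first, in descending order, in lower case throughout because no stretch of them is singled out.
rclstr_33535_378_4: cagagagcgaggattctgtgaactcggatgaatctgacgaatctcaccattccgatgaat
rclstr_30370_1415_6: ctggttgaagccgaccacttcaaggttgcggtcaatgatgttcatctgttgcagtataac
rclstr_9017_2438_10: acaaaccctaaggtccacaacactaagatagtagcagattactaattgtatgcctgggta
rclstr_37306_410_12: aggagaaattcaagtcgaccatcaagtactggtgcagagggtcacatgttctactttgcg
rclstr_37752_454_36: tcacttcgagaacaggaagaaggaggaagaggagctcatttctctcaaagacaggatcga
rclstr_47560_632_21: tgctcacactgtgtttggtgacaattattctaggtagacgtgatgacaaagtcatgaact

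The next 4 are the probes with the largest called rise in BHD over model.
rclstr_46658_381_20: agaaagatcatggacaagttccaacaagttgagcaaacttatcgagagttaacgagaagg
rclstr_22796_574_8: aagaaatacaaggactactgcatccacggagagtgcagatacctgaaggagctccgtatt
rclstr_61958_285_6: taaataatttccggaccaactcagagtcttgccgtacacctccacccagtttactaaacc
rclstr_64047_143_19: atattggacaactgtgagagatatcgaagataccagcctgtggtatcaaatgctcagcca

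Among the 282 there are 5 pairs that share at least 25 bases on the same strand, shown because their probes share sequence but sit in separate spots. Capitals mark the shared run.
rclstr_47052_289_18: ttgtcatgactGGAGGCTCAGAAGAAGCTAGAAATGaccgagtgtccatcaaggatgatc
rclstr_38239_463_18: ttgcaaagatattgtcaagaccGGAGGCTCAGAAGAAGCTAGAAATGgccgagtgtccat
rclstr_30452_1077_26: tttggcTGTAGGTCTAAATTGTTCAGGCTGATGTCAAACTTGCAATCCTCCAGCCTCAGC
rclstr_31356_1020_1018: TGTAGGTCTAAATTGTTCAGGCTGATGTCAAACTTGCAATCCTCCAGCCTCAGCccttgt
rclstr_32788_497_1017: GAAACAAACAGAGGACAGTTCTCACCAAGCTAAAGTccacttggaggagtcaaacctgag
rclstr_33014_458_2017: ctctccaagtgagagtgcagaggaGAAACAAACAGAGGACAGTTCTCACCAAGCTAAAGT
rclstr_27096_807_18: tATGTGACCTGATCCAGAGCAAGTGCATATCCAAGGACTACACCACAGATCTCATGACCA
rclstr_53989_471_1016: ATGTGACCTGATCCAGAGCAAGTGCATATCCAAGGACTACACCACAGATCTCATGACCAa
rclstr_58656_89_25: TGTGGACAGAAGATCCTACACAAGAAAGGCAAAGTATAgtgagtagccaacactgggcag
rclstr_27978_1359_18: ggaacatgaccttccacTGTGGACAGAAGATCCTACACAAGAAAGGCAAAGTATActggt

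Finally, 5 members have a counterpart on the array that reads the opposite strand, and 2 of these pairs are shown, the member first. Capitals mark the run whose reverse complement the other probe carries.
rclstr_40865_542_4: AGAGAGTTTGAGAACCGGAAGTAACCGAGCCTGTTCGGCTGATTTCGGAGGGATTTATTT
rclstr_7494_456_5: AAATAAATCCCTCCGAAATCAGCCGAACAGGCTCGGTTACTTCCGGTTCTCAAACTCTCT
rclstr_44619_492_10: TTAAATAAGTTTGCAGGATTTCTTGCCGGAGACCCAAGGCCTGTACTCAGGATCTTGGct
rclstr_17887_549_20: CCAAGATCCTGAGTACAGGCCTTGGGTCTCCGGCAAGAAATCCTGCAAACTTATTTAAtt

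All levels below are log2 processed signals minus the array's 75th percentile, so a level of 0 is the signal at that percentile. Differences named as deposited are on the log2 scale of the authors' table, which the choice of members used. The levels of rclstr_33535_378_4 were -3.78, -3.98, -4.96 and -3.02 on the control arrays, 0.74, 1.59, 1.27 and 4.21 on the model arrays and 2.08, -0.71, 1.00 and 2.30 on the BHD arrays. The 8 arrays of embolized rats all lay far above the 4 control arrays, with model replicate 4 highest and BHD replicate 2 lowest. Its deposited difference of 5.54 was the largest of the set. The fitted difference from control was 5.89 ± 0.81 (SE) for model, or 59.2-fold, and 5.10 ± 0.81 for BHD, or 34.3-fold. The levels of rclstr_30370_1415_6 were 0.66, 0.55, 0.07 and 0.01 on the control arrays, 2.76, 3.45, 3.65 and 5.36 on the model arrays and 4.83, 1.61, 3.79 and 4.71 on the BHD arrays. This probe already exceeded the 75th percentile in normal brain, and its deposited difference was 3.43. BHD replicate 2 was again the lowest of the 8 and model replicate 4 the highest.

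The levels of rclstr_9017_2438_10 were -4.66, -4.51, -4.93 and -5.29 on the control arrays, -2.83, -2.05, -1.53 and -0.56 on the model arrays and -1.09, -4.33, -2.18 and -0.87 on the BHD arrays. The lowest embolized array, BHD replicate 2, cleared the highest control array by only 0.26 on the deposited scale, although the mean difference was 3.00. The levels of rclstr_37306_410_12 were -4.96, -4.76, -4.82 and -5.44 on the control arrays, -3.45, -2.21, -2.71 and -0.49 on the model arrays and -1.32, -4.17, -2.01 and -0.90 on the BHD arrays. Its order of arrays was the same at both ends, and the deposited difference was 2.92. The levels of rclstr_37752_454_36 were -4.00, -4.97, -4.59 and -4.29 on the control arrays, -3.66, -2.12, 0.44 and -2.03 on the model arrays and -0.34, -3.69, -0.47 and -1.56 on the BHD arrays. Here model replicate 3 stood highest and BHD replicate 2 lowest, with model replicate 1 next to it, and the deposited difference was 2.84. The levels of rclstr_47560_632_21 were -2.09, -1.91, -2.25 and -2.28 on the control arrays, -0.06, -0.10, 0.35 and 1.88 on the model arrays and 1.19, -0.02, 0.27 and 1.26 on the BHD arrays. In this probe the 3 lowest of the 8, among them BHD replicate 2, lay close together and well clear of control, and the deposited difference was 2.74. Over these 6 probes the spread within an embolized group, as an SD of 4 arrays, ran from 0.65 to 1.69 log2 units.

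Across the whole set the deposited difference ran from 0.59 to 5.54 with a median of 0.89, or 1.85-fold. It reached 1, which is 2-fold, in 101 members and 2, which is 4-fold, in 17. Of those 17, model replicate 4 was the highest of the 8 arrays in 14 and BHD replicate 2 the lowest in 14. The gap between the lowest embolized and the highest control array was narrower, at a median of 0.14, under 0.05 in 44 members and over 0.2 in 92. The absence of overlap alone was met by 1202 of the 38523 detected probes, or 3.12%, and 920 of them fell short of the size threshold, while 780 probes reached the size but overlapped with control. On the scale of the 75th percentile, 252 of the 282 members kept the embolized arrays clear of control.

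At the threshold the values form no step. The 3 members just inside were rclstr_58457_63_11 at 0.5859, rclstr_49809_189_17 at 0.5856 and rclstr_6851_2319_8 at 0.5852 on the deposited scale. The 3 probes just outside that did not overlap were rclstr_11612_508_6 at 0.5834, rclstr_28633_1659_9 at 0.5809 and rclstr_15170_1583_10 at 0.5809. The levels of rclstr_58457_63_11 were -2.29, -2.65, -2.72 and -2.42 on the control arrays, -2.01, -2.15, -2.13 and -2.11 on the model arrays and -1.95, -1.75, -1.83 and -1.79 on the BHD arrays. For the probe outside with the brightest signal, rclstr_28633_1659_9, the levels were 3.00, 2.97, 2.92 and 2.89 in control, 3.22, 3.36, 3.42 and 3.93 in model and 3.98, 3.13, 3.67 and 3.72 in BHD. Neither of these probes showed overlap between control and the embolized arrays on this scale either.

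Most members were dim in normal brain. The median control level was -2.81, against -0.98 for all detected rclstr probes, and the range was -5.40 to 5.07. Of the members, 142 lay in the dimmest of 4 equal bands of detected probes by control level (1.47% of that band), 76 in the next (0.789%), 43 in the one above (0.447%) and 21 in the brightest (0.218%). The median deposited difference was 0.93, 0.88, 0.78 and 0.88 in these bands, in that order. The dimmest member, rclstr_23881_508_4, had levels of -5.41, -5.29, -5.50 and -5.38 on the control arrays, -4.66, -4.78, -4.80 and -4.93 on the model arrays and -5.18, -4.70, -5.23 and -4.67 on the BHD arrays. It was well above background on every array despite these low levels, and model stood at 1.52-fold of control. The brightest, rclstr_19643_1543_6, had levels of 5.22, 5.02, 5.0001 and 5.04 on the control arrays, 5.33, 5.60, 5.72 and 5.26 on the model arrays and 6.03, 5.89, 5.9986 and 5.80 on the BHD arrays. All its BHD arrays lay above all its model arrays. One further member, rclstr_39153_971_14, was printed in 10 spots, whose SD on a single array was 0.0764 to 0.300, and its control, model and BHD means were -4.17 ± 0.42, -3.54 ± 0.21 and -3.22 ± 0.06 (SD, n = 4). Members were spread over the array surface, with 62 to 83 in each of 4 bands of rows and 64 to 80 in each of 4 bands of columns.

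The size of the rise differed from array to array in the same way for many members. Relative to the control mean, the median member stood at 0.62, 0.67, 0.79 and 1.07 on model replicates 1 to 4 and at 1.19, 0.61, 0.80 and 1.11 on BHD replicates 1 to 4. The 4 control arrays stood at 0.06, 0.00, -0.06 and -0.01 by the same measure, and the median of all detected rclstr probes stayed within -0.03 to 0.02 on every array. Model replicate 4 was the highest of the 8 arrays in 96 members and BHD replicate 1 in 76. BHD replicate 2 was the lowest in 105 members and model replicate 1 in 62. Among all detected rclstr probes, model replicate 4 was the highest in 15.9% and BHD replicate 2 the lowest in 24.4%. BHD replicate 1 was the highest in 9.61% of them and model replicate 1 the lowest in 9.21%. BHD replicate 2 was also the highest in 20.4%, so over all detected probes it was the most frequent array at both ends. Within its own group, model replicate 4 was the highest in 165 members (27.8% of all detected probes) and BHD replicate 2 the lowest in 164 (35.1% of all detected).

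The members' spread within the embolized groups was wide. The median SD over 4 arrays was 0.17 for members in control, 0.37 in model and 0.37 in BHD, against 0.13, 0.16 and 0.17 for all detected rclstr probes. As a description, each member's levels over the 8 embolized arrays were correlated with the median member profile, to which the member itself contributes and in which arrays of both groups are pooled. The median r was 0.65, against -0.04 for all detected rclstr probes. It exceeded 0.8 in 92 members, or 32.6%, against 3.32% of all detected probes. The chip's own control probes for the length of labelled product also varied: the log2 gap between 3′ and 5′ GAPDH probes was 3.01 to 3.10 on control arrays, 2.85 to 2.97 on model arrays and 2.83 to 2.98 on BHD arrays, with 2.86 on model replicate 4 and 2.83 on BHD replicate 2. For PGK1 the gap was 6.38 to 6.50 on control arrays, 6.19 to 6.43 on model arrays and 6.35 to 6.59 on BHD arrays, with 6.25 on model replicate 4 and 6.38 on BHD replicate 2, so the order of groups differed from that of GAPDH. The part of this in the array pattern was not tested.

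The 92 members that followed the common profile had a median deposited difference of 1.00 and a median SD of 0.57 in model and 0.50 in BHD. Model replicate 4 was highest in 56 of them and BHD replicate 2 lowest in 61. The 92 were sorted by their likeness to this profile, so which arrays stand high or low in them follows in part from the sorting. An example among the largest, chosen after its values were seen, is rclstr_49913_595_14. Its levels were -2.32, -2.50, -2.53 and -2.28 on the control arrays, -0.51, -0.38, -0.24 and 2.23 on the model arrays and 1.05, -1.89, 0.19 and 1.37 on the BHD arrays. Its 3 lower model arrays lay close together, while the fourth stood far above them.

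A smaller number of members ran against that profile. In 37 the r was below 0. Model replicate 4 was the lowest of the 8 arrays in 21 of these and BHD replicate 2 the highest in 13, which sorting by r favours. The 37 members were steadier, with a median SD of 0.24 in model and 0.20 in BHD, and their median deposited difference was 0.74. The 2 with the most negative r, named after their values were seen, were rclstr_63700_264_22 and rclstr_57655_210_20. The first had levels that were -2.47, -2.17, -2.10 and -2.08 on the control arrays, -1.49, -1.33, -1.57 and -1.91 on the model arrays and -1.86, -1.69, -1.56 and -1.52 on the BHD arrays. The second had levels that were -0.74, -0.88, -1.05 and -0.70 on the control arrays, -0.16, -0.16, -0.01 and -0.59 on the model arrays and -0.21, 0.00, -0.12 and -0.32 on the BHD arrays. In both, model replicate 4 lay nearest to control. In the second, BHD replicate 2 was the highest array.

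Set side by side, the contrasts with control share the 4 control arrays and were both used in the choice, so their counts describe the set and support nothing. At an adjusted p under 0.05 in the limma fit, 5 members were called higher in model than in control. Of all 44706 tested probes, 0.0224% were. Against control, 204 members were called higher in BHD, where 3.85% of all tested probes were. Calls of lower signal over all tested probes numbered 11 in model and 3080 in BHD. Model shared a slide with control, while BHD lay on another slide scanned separately. The decoction therefore cannot be told apart from slide and scan in these counts. The median fitted difference of members was 0.78 for model and 0.93 for BHD, or 1.72-fold and 1.90-fold, with 79 and 111 members at 2-fold or more. The medians of all tested probes were 0.00 and -0.03. These differences stayed above 0 for all 282 members in both contrasts under the 5 scalings tried. Centring on the spiked-in E1A probes shifted the median of all tested probes by 0.17 in model against control. It brought the members called to 114 and 269, where 1.5% and 13.9% of all tested probes were then called higher, with member medians of 0.95 and 1.10. After normexp background correction the member medians were 0.46 and 0.57. The E1A probes stood 2.72 to 2.87 above the 75th percentile on control arrays, 2.56 to 2.65 on model arrays and 2.54 to 2.65 on BHD arrays.

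The 5 members called in model against control were singled out on values that the choice used, and are named only to say which they are, namely rclstr_33535_378_4, described above, rclstr_63073_208_18, rclstr_60820_262_12, rclstr_24422_412_10 and rclstr_47655_7_6. The levels of rclstr_63073_208_18 were -0.21, -0.24, -0.28 and 0.01 on the control arrays, 0.67, 0.70, 0.79 and 0.64 on the model arrays and 0.74, 0.87, 0.76 and 1.20 on the BHD arrays. The levels of rclstr_60820_262_12 were -1.36, -1.41, -1.51 and -1.46 on the control arrays, -0.69, -0.42, -0.49 and -0.98 on the model arrays and -0.54, -0.43, -0.61 and -0.54 on the BHD arrays. The levels of rclstr_24422_412_10 were -3.59, -3.39, -3.86 and -3.81 on the control arrays, -2.84, -3.02, -2.92 and -2.88 on the model arrays and -3.02, -2.96, -2.86 and -2.99 on the BHD arrays. These 3 differ from the large rises in that their embolized arrays lie close together, without the high value on model replicate 4. The levels of rclstr_47655_7_6 were -3.78, -4.02, -3.73 and -4.24 on the control arrays, -3.21, -3.13, -3.25 and -2.88 on the model arrays and -3.28, -3.48, -3.33 and -3.34 on the BHD arrays. In this probe all 4 BHD arrays lay below all 4 model arrays, while still above control.

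The comparison of BHD with model asks whether the RNAs raised after embolization stood at another level in rats given the decoction. Of the 282 members, 9 rose in BHD over model at a limma adjusted p under 0.05, where 0.691% of all tested probes rose, and none fell, although 1119 of the 1428 probes called in either direction over the whole array (3.19% of those tested) fell. The choice bears on this, because an RNA at control level in any BHD array could not be a member: 517 probes met the rule on the model arrays alone, 233 of them members, and 824 met it on the BHD arrays alone, 273 of them members. At an unadjusted limma p under 0.05, 42 members were higher and 1 was lower, where 5.69% of all tested probes were higher and 11.4% lower. The fitted change was above 0 in 192 members and below 0 in 90. Its median was 0.11, or 1.08-fold, with quartiles of -0.05 and 0.26, against a median of -0.02 over all tested probes. It was smaller than 0.25 in either direction in 191 members and reached 1 in 4. BHD and model lay on different slides, scans and rows, so the decoction cannot be told apart from these.

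The clearest rise was that of rclstr_46658_381_20. Its levels were -3.82, -4.08, -3.84 and -4.11 on the control arrays, -3.23, -3.36, -3.25 and -3.41 on the model arrays and -1.61, -2.13, -2.03 and -2.14 on the BHD arrays. The 3 groups formed 3 separate steps with no overlap, and the 4 model arrays fell within a narrow band. BHD exceeded model by 1.34 ± 0.12 (SE, limma adjusted p = 0.00114), or 2.52-fold, while model exceeded control by 0.65. The levels of rclstr_22796_574_8 were -3.51, -4.09, -4.14 and -3.79 on the control arrays, -3.49, -3.49, -3.47 and -3.43 on the model arrays and -2.52, -2.11, -2.09 and -2.74 on the BHD arrays. Its model arrays were almost level and barely cleared the highest control array, control replicate 1, so most of the distance from control lay in BHD. The rise over model was 1.10 ± 0.16 (SE, limma adjusted p = 0.00598), or 2.15-fold. These 2 calls held under each of the 23 alternative settings and omissions tried. However, normexp background correction, run here with a constant offset added to every signal, brought the changes down to 0.69 and 0.54.

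The levels of rclstr_61958_285_6 were 4.43, 4.58, 4.57 and 4.23 on the control arrays, 4.76, 5.49, 5.72 and 5.72 on the model arrays and 6.53, 6.34, 6.69 and 6.22 on the BHD arrays. This was one of the brightest members, and its BHD arrays all exceeded its model arrays, with model replicate 1 close to control. It rose by 1.03 ± 0.20 (SE, limma adjusted p = 0.0192), or 2.04-fold, a call lost without BHD replicate 1 (limma adjusted p = 0.0575), without BHD replicate 3 (0.058) and in a fit of the model and BHD arrays alone (0.0589), in a range of 0.017 to 0.0589 over all alternatives. The levels of rclstr_64047_143_19 were -2.13, -1.99, -2.40 and -2.27 on the control arrays, -1.91, -1.77, -0.99 and -1.61 on the model arrays and -0.77, -0.67, -0.73 and -0.99 on the BHD arrays. Its model and BHD arrays were apart except that model replicate 3 reached the level of BHD replicate 4. It rose by 0.78 ± 0.18 (SE, limma adjusted p = 0.0379), and 12 of the 23 alternatives lost the call, over a range of adjusted p from 0.00499 to 0.126. Among the omissions, those of control replicates 1 and 4, model replicates 1, 2 and 4 and BHD replicates 1, 2 and 3 each lost it.

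The other 5 called members rose by less, from 0.45 to 0.59, with limma adjusted p from 0.0284 to 0.0489. The levels of rclstr_13097_777_8 were 1.14, 1.10, 0.79 and 0.97 on the control arrays, 1.54, 1.99, 2.08 and 1.46 on the model arrays and 2.50, 2.36, 2.34 and 2.24 on the BHD arrays. The levels of rclstr_57300_312_18 were 0.85, 0.84, 0.65 and 0.52 on the control arrays, 0.94, 1.11, 1.25 and 0.97 on the model arrays and 1.78, 1.41, 1.56 and 1.58 on the BHD arrays. In both the model arrays lay between the control and BHD arrays without overlap. The levels of rclstr_48494_611_20 were -0.98, -0.87, -1.11 and -1.10 on the control arrays, -0.57, -0.16, -0.07 and -0.40 on the model arrays and 0.37, 0.04, 0.17 and 0.22 on the BHD arrays. The levels of rclstr_25414_1888_11 were -3.36, -3.36, -3.30 and -3.42 on the control arrays, -3.16, -3.01, -2.94 and -2.74 on the model arrays and -2.50, -2.30, -2.61 and -2.64 on the BHD arrays. The same order held, and model replicate 1 was the lowest of the embolized arrays in each. The fifth was rclstr_19643_1543_6, the brightest member, whose levels are given above. Between 9 and 16 of the 23 alternatives lost the call for these 5 probes.

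The count of 9 moved when a single array was left out. This held for control arrays too, whose omission changes the estimate of spread but not the fitted BHD minus model changes. Leaving out 1 array at a time, which brought the share of all tested probes called higher to between 0.306% and 0.774%, gave 2 to 13, with 2 without BHD replicate 1, 3 without BHD replicate 3 or model replicate 1, 4 without control replicate 1, model replicate 2 or model replicate 4, and 5 without control replicate 2 or control replicate 4. The median change was -0.01 without BHD replicate 1 and 0.24 without model replicate 4. With both model replicate 4 and BHD replicate 2 left out, a setting added after the data were seen, 14 members were called, 4 of them among the 9, where 0.608% of all tested probes were called higher, and the median change was 0.34.

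By order alone, all 4 BHD arrays lay above all 4 model arrays in 30 members, or 10.6%, where 2.66% of all detected rclstr probes did. They lay below in 2 members, or 0.709%, where 6.84% did. The choice bears on these shares too, because it required every BHD array to exceed every control array. BHD and model also lay on different slides, so the shares do not support an effect of the decoction. The 2 members with BHD below model were rclstr_47655_7_6, given above, and rclstr_15586_593_6. The levels of the latter were -3.68, -4.88, -4.05 and -3.99 on the control arrays, -3.19, -3.51, -3.34 and -3.49 on the model arrays and -3.68, -3.68, -3.75 and -3.72 on the BHD arrays. On this scale BHD replicates 3 and 4 lay below control replicate 1, although on the deposited scale every embolized array was above control. rclstr_15586_593_6 changed by -0.32 ± 0.20 (SE, limma adjusted p = 0.468), and rclstr_47655_7_6 by -0.24 ± 0.12 (SE, limma adjusted p = 0.35), so neither passed the test. One member outside the calls reached a change of 1. The levels of rclstr_18311_505_5 were -5.40, -5.17, -5.13 and -5.19 on the control arrays, -4.27, -3.46, -3.70 and -5.0015 on the model arrays and -3.03, -2.52, -3.20 and -3.34 on the BHD arrays. Model replicate 4 was near control and the other model arrays were not, and the change of 1.09 ± 0.29 did not pass (SE, limma adjusted p = 0.0685).

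None of the 6 members with the largest differences from control was called between BHD and model. Their changes were -0.79 ± 0.81 for rclstr_33535_378_4, -0.07 ± 0.69 for rclstr_30370_1415_6 and -0.38 ± 0.68 for rclstr_9017_2438_10 (SE). For rclstr_37306_410_12, rclstr_37752_454_36 and rclstr_47560_632_21 they were 0.12 ± 0.71, 0.33 ± 0.85 and 0.16 ± 0.42. The limma adjusted p ran from 0.702 to 0.978. None of the 6 changes exceeded its standard error, so no direction was detectable for them. Of the 17 members with a deposited difference of 2 or more, 9 had a fitted change below 0 and none was called. Over all tested probes, 3.19% were called in either direction. The absence of calls among the 6 or the 17 is near that share and marks nothing particular to them.

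Probes that share sequence but sit in separate spots had like differences from control and like patterns over the arrays, though often at different levels. Of the members, 14 (4.96%) shared 25 or more bases on the same strand with another detected probe, where 4.14% of all detected rclstr probes did, and 10 of them form the 5 pairs shown above. Both probes of each such pair are members, so the rule itself required a rise in both. The closest pair is rclstr_27096_807_18 and rclstr_53989_471_1016, offset by a single base. The levels of rclstr_27096_807_18 were -0.14, -0.10, -0.42 and -0.18 on the control arrays, 0.43, 0.45, 0.50 and 1.64 on the model arrays and 1.20, 0.09, 0.62 and 0.98 on the BHD arrays. The levels of rclstr_53989_471_1016 were 0.05, -0.03, -0.20 and -0.07 on the control arrays, 0.55, 0.49, 0.73 and 1.76 on the model arrays and 1.27, 0.20, 0.84 and 1.17 on the BHD arrays. The first minus the second lay between -0.24 and -0.04 on the 12 arrays, an SD of 0.07, so the high value on model replicate 4 and the low one on BHD replicate 2 appeared in both spots.

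rclstr_47052_289_18 and rclstr_38239_463_18 share 25 bases. The aligned bases on both sides of that run differ in places, so these probes need not read the same RNA. The levels of rclstr_47052_289_18 were -3.93, -4.39, -4.79 and -4.35 on the control arrays, -3.13, -2.08, -2.39 and -0.02 on the model arrays and -1.20, -3.82, -2.09 and -0.55 on the BHD arrays. The levels of rclstr_38239_463_18 were -2.78, -3.08, -2.98 and -2.99 on the control arrays, -1.64, -0.71, -1.22 and 1.17 on the model arrays and 0.17, -2.31, -0.67 and 0.63 on the BHD arrays. The first was dimmer by 1.16 to 1.81 on every array, yet the deposited differences from control were alike, at 2.53 and 2.42. rclstr_30452_1077_26 and rclstr_31356_1020_1018 share 54 bases, with deposited differences of 1.16 and 0.87. The first was dimmer by 0.18 to 0.87, and in both, model replicate 4 was the highest array.

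The levels of rclstr_32788_497_1017 were -2.71, -2.54, -2.87 and -2.30 on the control arrays, -2.23, -1.96, -1.50 and -1.35 on the model arrays and -1.24, -1.79, -1.91 and -1.14 on the BHD arrays. Its pair, rclstr_33014_458_2017, shares 36 bases with it and lay 0.63 to 1.12 below it on each array, with deposited differences of 0.99 and 0.98. The levels of rclstr_58656_89_25 were -2.03, -2.51, -2.58 and -2.56 on the control arrays, -1.65, -1.95, -1.92 and -1.77 on the model arrays and -1.49, -1.78, -1.36 and -1.58 on the BHD arrays. Its pair, rclstr_27978_1359_18, shares 38 bases and was the brighter by 1.44 to 1.83, with deposited differences of 0.76 and 0.63. In these 2 pairs model replicate 4 did not tower over the other arrays, and both probes of a pair showed this.

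Overlapping probes also show how near the edge of the rule a member can lie. There were 6 members that shared 25 or more bases on the same strand with a detected probe outside the set. rclstr_58537_394_1005 shares 54 bases with rclstr_51702_574_12, and their deposited differences were 1.60 and 1.67. The outside probe failed only on the gap, its lowest embolized array being 0.04 below its highest control array. rclstr_56036_276_1010 shares 50 bases with rclstr_54417_309_16, at 1.41 and 1.39, and the latter again missed by a gap of -0.04. Both probes of the pair rclstr_32788_497_1017 and rclstr_33014_458_2017 overlap rclstr_25341_1049_26, which stood at 0.86 with a gap of -0.07. rclstr_22748_1878_26 and rclstr_21709_1955_22 stood at 0.72 and 0.66, the latter with a gap of -0.24. rclstr_60851_292_41 and rclstr_40044_608_17 stood at 0.65 and 0.46, the latter clear of control but below the size threshold.

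Probes of the opposite strand showed smaller differences than their members, but members were chosen for a rise and these probes were not. The choice itself thus favours a smaller difference in the opposite probes. There were 5 members (1.77%, against 1.44% of all detected rclstr probes) with 25 or more bases complementary to another detected probe, and none of the counterparts belonged to the set. rclstr_40865_542_4 is the full reverse complement of rclstr_7494_456_5, and their deposited differences were 0.88 and -0.39. The levels of rclstr_40865_542_4 were 1.05, 0.85, 0.57 and 0.62 on the control arrays, 1.46, 1.64, 1.74 and 1.24 on the model arrays and 1.77, 1.83, 1.94 and 1.65 on the BHD arrays. The opposite probe had levels of 1.26, 1.16, 1.20 and 1.14 in control, 1.00, 1.02, 0.89 and 0.43 in model and 0.79, 0.98, 0.86 and 0.47 in BHD. The member's embolized arrays all lay above control, while those of the opposite probe all lay below. rclstr_44619_492_10 and rclstr_17887_549_20, complementary over 58 bases, stood at 0.61 and -0.06 on the deposited scale. The pairs rclstr_52395_472_15 with rclstr_17553_1176_11 and rclstr_56980_95_7 with rclstr_17293_269_4 stood at 0.86 and 0.22, and at 0.76 and 0.30. For rclstr_23881_508_4 and rclstr_3466_4630_7 the differences were 0.64 and 0.26. In all 5 counterparts at least 1 embolized array lay below the highest control array, and the difference between a member and its counterpart was not tested.

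Sequence composition, which the choice did not use, was close to that of the other detected probes. The GC content of members ran from 40% to 46.7% with a median of 46.7%, no base repeated more than 3 times in a row, and the same values held for all detected rclstr probes. The motif AATAAA, the usual signal for cutting and polyadenylation, stood in 9 members as printed (3.19%, against 1.84% of detected rclstr probes) and in 7 on the other strand (2.48%, against 1.79%). The motif ATTTA, the core of AU-rich elements, stood in 19 members as printed (6.74%, against 6.36%) and in 15 on the other strand (5.32%, against 5.58%). The 2 motifs can overlap, and both were searched over the 60 bases of each probe. A frame without a stop codon ran through 238 members as printed (84.4%, against 86.5%) and through 219 on the other strand (77.7%, against 78.9%).

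A match of 30 or more bases to a RefSeq promoter window of the GRCr8 assembly, the bases around a gene's annotated start, was found for 3 members (1.06%), against 1.78% of all detected rclstr probes. They are shown with the matched bases in capitals.
rclstr_13250_1922_19: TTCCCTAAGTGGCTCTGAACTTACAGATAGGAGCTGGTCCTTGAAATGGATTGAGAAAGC
rclstr_38284_323_21: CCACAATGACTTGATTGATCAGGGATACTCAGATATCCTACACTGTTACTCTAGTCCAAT
rclstr_49809_189_17: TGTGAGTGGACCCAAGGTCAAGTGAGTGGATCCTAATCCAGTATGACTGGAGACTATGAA
The third, rclstr_49809_189_17, lies in the sense of LOC134485686, a long non-coding RNA gene, at chr2:222542761-222542820, and spans its annotated start from 35 bases before to 25 after. The levels of rclstr_49809_189_17 were -4.82, -4.95, -4.60 and -4.96 on the control arrays, -4.43, -4.33, -4.40 and -4.38 on the model arrays and -4.04, -4.42, -4.59 and -4.23 on the BHD arrays. It was dim throughout, and its deposited difference of 0.5856 was just inside the threshold. The first, rclstr_13250_1922_19, lies on the strand opposite to LOC120096252, also a long non-coding RNA gene, at chr13:49134515-49134574. The levels of rclstr_13250_1922_19 were -3.04, -3.14, -3.24 and -3.04 on the control arrays, -2.46, -2.60, -2.57 and -1.06 on the model arrays and -1.59, -2.59, -2.63 and -1.92 on the BHD arrays. Model replicate 4 stood apart from the other model arrays here. The second, rclstr_38284_323_21, matched the opposite strand of 8 windows of protein-coding LOC genes on chromosome 19, with all 60 bases in 4 of them, so its source cannot be placed. The levels of rclstr_38284_323_21 were -2.94, -3.16, -3.21 and -3.16 on the control arrays, -2.31, -2.46, -1.90 and -2.33 on the model arrays and -2.55, -1.66, -2.66 and -2.91 on the BHD arrays. It ran against the common profile, with BHD replicate 2 highest and BHD replicate 4 lowest. A match is a description of the sequence and does not name the gene measured.

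The rule turned round, with every embolized array below every control array by the same size, was met by 177 rclstr probes. Among the 2856 CIRCpedia probes well above background on all arrays, whose name refers to a catalogue of circular RNAs, 4 met the rule for a rise, or 0.140%, against 0.732% of the rclstr probes. The 2 classes were not compared by a test.

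Over the series, 73.2% to 77.3% of the probes were well above background on each array, and the signal at the 75th percentile was 397 to 452. The number of arrays, 4 per group, limits the precision of each value. The count of members itself moved with single arrays, to 483 without BHD replicate 2 and 457 without control replicate 1, of which 272 and 273 were among the 282.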

How the data were processed

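RNA from 12 rat brain samples, in 3 groups of 4 named by the sample titles, was hybridised to one-colour arrays. The submitters' processing notes name Agilent Feature Extraction, version 10.7.1.1, for the images. The scanner files hold processed spot intensity, from which background and spatial trend had been subtracted per the file headers, mean and local background intensity without correction, and flags of 0 or 1 per spot. In the deposited table the authors give log2 values of the same arrays. All its columns had a median of 6.134, and they correlated with the scanner values at r = 0.9994 to 1.000 over probes, so they are log2, in the same direction, not centred per probe, and read as quantile normalized, a step that no source used here names.

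Members were found on the deposited log2 values and the flags. Levels and tests used log2 processed intensity, averaged over the spots of a probe that were not flagged as outliers (0.113% of spots were), minus each array's 75th percentile. A probe was tested if some group had it well above background on all 4 arrays, which left 44706 after 12 probes without a value on some array were left out. Group means were fitted over all 12 arrays with lmFit, contrasts.fit and eBayes of limma (version 3.58.1, under R version 4.3.3), with Benjamini-Hochberg adjustment, and the script was tested on simulated data. Probes were named by rule: the 6 largest differences, the called members, the families of shared sequence, the neighbours of the threshold, the brightest and dimmest member, and matches to a gene. All 5 families hold 2 members, so all are given. The list of cell type markers could not be applied, because no source used here pairs probes with genes. Transcripts and proteins were not used here. The members and lists were chosen with earlier results of these data known. The alternatives were other scalings, background corrections, filters, variance models, thresholds, a replicate block, and leaving out arrays.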

Additional observations from a re-analysis of the deposited data

Results flagged for a closer look

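Beside the 9 called members, 10 of the 147 groups of 4 arrays of the 49 members named above have 1 array far from the other 3 by Dixon's test. Chance gives about 1 in 20 for independent probes not picked by their values. Some of the 49 were named after their values were seen, rclstr_49913_595_14 among them, and some share sequence. The 10 therefore cannot be set against that rate. In control the arrays standing apart are replicate 1 of rclstr_19643_1543_6 at a level of 5.22, of rclstr_58656_89_25 at -2.03 and of rclstr_27978_1359_18 at -0.42, the last 2 being an overlapping pair. Also in control are replicate 2 of rclstr_6851_2319_8 at -3.43 and replicate 3 of rclstr_22748_1878_26 at -3.36. In model they are replicate 4 of rclstr_49913_595_14 at 2.23, of rclstr_27096_807_18 at 1.64, of rclstr_13250_1922_19 at -1.06 and of rclstr_52395_472_15 at 2.67, and replicate 1 of rclstr_60851_292_41 at -0.40. Over all members, 46 of 846 such groups (5.44%) had an array standing apart. In 20 of the 46 it was model replicate 4, and each other array accounted for 0 to 5.

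The 9 members whose 2 embolized groups differed in the limma fit stand out because their distance from control was larger in BHD than in model. The BHD minus model log2 changes were 1.34 for rclstr_46658_381_20, 1.10 for rclstr_22796_574_8, 1.03 for rclstr_61958_285_6 and 0.78 for rclstr_64047_143_19. They were 0.59 for rclstr_13097_777_8, 0.51 for rclstr_57300_312_18, 0.50 for rclstr_48494_611_20, and 0.45 for both rclstr_25414_1888_11 and rclstr_19643_1543_6.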

How the results depend on the processing

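The count of members higher in BHD than in model was 9 as reported, with the share of all tested probes called higher in brackets (0.691%). It was 5 with E1A centring (0.633%) and 15 with normexp and quantile normalization (1.16%). With no filter on dim probes it was 4 (0.313%). It was 2 in a fit of the model and BHD arrays alone (0.347%) and 3 with a replicate block (0.429%). It was 2 at an adjusted p under 0.01 (0.154%), 20 under 0.10 (1.42%) and 5 with a 1.5-fold minimum (0.336%). Leaving out 1 array gave 2 to 13 (0.306% to 0.774%). Leaving out both model replicate 4 and BHD replicate 2, an alternative chosen after seeing the data, gave 14 (0.608%). The other settings gave 8 to 13 (0.626% to 0.852%). No member was called lower in BHD by limma under any setting tried. The median change stayed between -0.01 and 0.24 when 1 array was left out and was 0.34 without both arrays.

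The number of members, 282 as reported, was 620 with E1A centring, 114 with normexp and percentile scaling and 125 with normexp and quantile normalization. It was 101 with a minimum difference of 1, 1202 with none, 517 for model arrays alone, 824 for BHD arrays alone and 529 without both arrays. Leaving out 1 array gave 267 to 483.

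Uncalled changes of the largest members turned sign, the cause of which was not tested. With 1 array left out they ran from -0.44 to 0.64 for rclstr_30370_1415_6, -0.79 to 0.36 for rclstr_9017_2438_10, -0.30 to 0.81 for rclstr_37306_410_12, -0.28 to 1.09 for rclstr_37752_454_36 and -0.0492 to 0.61 for rclstr_47560_632_21. Without both arrays they were 0.59 for rclstr_33535_378_4, 1.16 for rclstr_30370_1415_6 and 0.75 for rclstr_9017_2438_10.

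For model and BHD samples with the same number, deviations from the group mean correlated at r = -0.11, 0.24, 0.19 and 0.21 over probes. Among unlike numbers, r was 0.30 for model replicate 4 with BHD replicate 1 and 0.28 for model replicate 1 with BHD replicate 2. It was -0.305 for model replicate 4 with BHD replicate 2. Control and model samples of the same number gave -0.19, -0.07, -0.14 and -0.04. Control and BHD samples of the same number gave 0.12, -0.11, -0.16 and -0.09. Samples with the same number also lay in the same column of their slide, so a link by number and one by column cannot be told apart. Neither was tested. The 4 arrays per group and the dim control signal of many members limit what can be detected.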
